A study of Mus musculus with 8 samples.

Results

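Genes that are switched on when cells copy their DNA and divide were followed through the cells of the newborn mouse skull. The set held 40 genes, chosen by symbol among the 31053 genes of the feature tables: 22 genes of mitosis (Mki67, Top2a, Cdk1, Ccnb1, Ccnb2, Ccna2, Cenpf, Cenpe, Cenpa, Birc5, Aurka, Aurkb, Plk1, Bub1, Bub1b, Cdc20, Ube2c, Tpx2, Kif11, Kif20b, Nusap1 and Hmmr) and 18 genes of S phase (Pcna, Mcm2 to Mcm7, Rrm1, Rrm2, Tyms, Dut, Gins2, Cdc6, Cdt1, Ccne1, Ccne2, Uhrf1 and Tk1). All 40 were found. Single cells of the parietal bone of mouse pups at postnatal day 4 to 5 were profiled by droplet RNA sequencing in 8 libraries, 4 from wild type pups (WT) and 4 from pups heterozygous for the G610C allele of Col1a2 (Het), a glycine substitution in the alpha 2 chain of type I collagen that serves as a model of osteogenesis imperfecta. Every cell of a Het pup carried the allele. WT and Het pups came from the same strain, B6.129(FVB)-Col1a2tm1Mcbr/J, the stock that carries the allele and that was kept on a C57BL/6J background. Each library was a pool of cells from up to 5 pups of 1 genotype, so the libraries were separate pools and p-values measured the spread between pools. Kit version 3 was used for WT libraries 1 and 2 and Het libraries 3 and 4, whereas kit version 3.1 was used for WT libraries 5 and 6 and Het libraries 7 and 8.

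Background. A dividing cell first commits to the cycle in G1, then replicates its DNA in S phase and separates the copies in mitosis. Before S phase, E2F factors are released from the Rb protein and switch on genes for nucleotide synthesis, for licensing of replication origins and for the replication fork itself. The genes of mitosis are switched on later, by the MuvB complex with B-Myb and FoxM1, and the same complex with other partners holds both groups silent in resting cells. In bone, osteoblast precursors divide, while osteoblasts that make most collagen matrix are regarded as largely postmitotic.

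The promoters were searched for the letters of sites that MuvB and E2F are known to bind. MuvB binds the CHR element, searched as TTTGAA or TTCGAA, and E2F binds a GC-rich site, searched as TTTCCCGC, TTTCGCGC, TTTGCCGC or TTTGGCGC. Both strands of the 250 bases before each gene's start in the RefSeq table were searched, and 34 of the 40 genes were matched in RefSeq promoters of GRCm38.p6. The CHR letters were found in 8 of 19 mitosis promoters (42.1%), in 2 of 15 S phase promoters (13.3%) and in 19.6% of the 27025 promoters of all genes. The E2F letters were found in 5 of 15 S phase promoters (33.3%), in 1 of 19 mitosis promoters (5.26%, Cdk1) and in 2.16% of all promoters. The letters CCAAT, which bind NF-Y, were found in 84.2% of mitosis promoters, 60% of S phase promoters and 37.5% of all promoters. A match describes letters only. The 4 promoters below belong to the mitosis genes with CHR letters and the S phase genes with E2F letters that had the highest level over all cells, and they are shown because the report follows the 2 groups side by side. Each runs 5′ to 3′ on the gene's strand, here always the minus strand, ends at the base before the start that the RefSeq table gives and has the matched letters in capitals (CHR in Mki67 and Top2a, E2F in Mcm7 and Mcm6). They lie at chr7:135716380-135716629 (Mki67), chr11:99024190-99024439 (Top2a), chr5:138171884-138172133 (Mcm7) and chr1:128359706-128359955 (Mcm6). These starts are not always those of the gene annotation used for positions: the Mki67 and Mcm6 stretches end slightly upstream of the annotated genes, the Top2a stretch abuts its gene, and the Mcm7 stretch lies inside the annotated gene, chr5:138164583-138172422, downstream of its outermost start.
Mki67: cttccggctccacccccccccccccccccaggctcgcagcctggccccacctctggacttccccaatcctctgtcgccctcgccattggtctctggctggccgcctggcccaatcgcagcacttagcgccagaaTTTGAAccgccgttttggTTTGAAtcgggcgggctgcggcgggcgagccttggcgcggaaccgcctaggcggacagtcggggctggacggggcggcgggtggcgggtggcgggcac
Top2a: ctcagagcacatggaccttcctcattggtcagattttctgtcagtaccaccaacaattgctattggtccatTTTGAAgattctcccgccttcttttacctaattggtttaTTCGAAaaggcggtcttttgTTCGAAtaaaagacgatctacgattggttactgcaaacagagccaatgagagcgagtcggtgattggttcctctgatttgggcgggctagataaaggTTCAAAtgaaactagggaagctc
Mcm7: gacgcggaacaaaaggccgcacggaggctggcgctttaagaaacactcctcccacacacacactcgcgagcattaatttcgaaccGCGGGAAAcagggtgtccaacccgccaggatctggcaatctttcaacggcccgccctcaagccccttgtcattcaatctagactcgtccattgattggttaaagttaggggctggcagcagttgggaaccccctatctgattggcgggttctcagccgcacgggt
Mcm6: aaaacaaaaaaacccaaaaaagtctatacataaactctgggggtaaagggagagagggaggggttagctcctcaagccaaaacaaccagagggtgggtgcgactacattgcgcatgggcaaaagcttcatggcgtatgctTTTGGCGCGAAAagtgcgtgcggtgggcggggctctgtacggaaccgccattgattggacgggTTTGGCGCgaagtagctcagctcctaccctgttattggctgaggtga

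Counted from the start in the RefSeq table, the CHR letters of Mki67 began at -116 and -98, and those of Top2a at -179, -140, -120 and, on the opposite strand, -23. The E2F letters of Mcm7 began at -165 on the opposite strand. Those of Mcm6 began at -110 and -47, with another match on the opposite strand at -106 that overlapped the one at -110.

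Of 68625 barcodes, 46420 were kept as cells. A barcode was kept when 500 or more genes were seen in it and mitochondrial transcripts made less than 10% of its UMIs (unique molecular identifiers, each counting 1 captured RNA molecule). The libraries held 30480239 to 85162035 UMIs, and any pair of libraries shared 1 to 24 barcodes. Cells were put in classes by genes that are no members of the set. The 2671 osteoblasts were cells in which Col1a1 reached 10 UMIs and 2 or more of the genes Runx2, Sp7 and Ibsp reached 2 UMIs each. They were called early (under 0.75% of UMIs from Col1a1, 379 cells), differentiating (0.75 to 3.5%, 1217 cells) and mature (over 3.5%, 1075 cells). The comparison classes were Col2a1 cells (over 1% of UMIs from Col2a1, 15370 cells), Ptprc cells (at least 1 UMI of the blood cell gene Ptprc, 6076 cells) and the remaining 22303 cells. Levels are given as CPM, the UMIs of a gene for every 1000000 UMIs of a class in a library. All 10 osteoblast markers that were not used for the choice were detected in each stage and also in each comparison class, so detection alone does not mark osteoblasts. Their sum was 9358 to 44240 CPM in all osteoblasts of a library and at most 1926 CPM in the comparison classes. Cartilage markers took 15520 to 39160 CPM in early osteoblasts of libraries 5 to 8, against 187 to 4843 in libraries 1 to 4. The unused osteoblast markers took 7287 to 11890 CPM in libraries 5 to 8, less than the cartilage markers, and 17.4% of all early osteoblasts had over 1% of their UMIs from Col2a1. The markers in those 4 libraries thus go against the name, and "early osteoblasts" stands here only for the rule with its Col1a1 limit. In differentiating osteoblasts, too, the cartilage markers were above the unused osteoblast markers in library 5 (8792 against 5452 CPM) and library 7 (9601 against 7583 CPM), and 7.56% of these cells had over 1% of their UMIs from Col2a1, so that name also stands only for the rule there. In mature osteoblasts the osteoblast markers were above the cartilage markers in 8 of 8 libraries. Among the remaining cells, 69.6% in library 2 and 33.8% in library 1 carried blood cell markers, against 0.536 to 7.48% in the other 6 libraries.

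In GRCm38 the genes described most often lie at chr7:135689784-135716361 (Mki67), chr11:98992943-99024189 (Top2a), chr10:69335146-69352938 (Cdk1), chr2:132249162-132253314 (Pcna) and chr7:38097984-38107534 (Ccne1), all on the minus strand, and at chr8:75109569-75128439 on the plus strand (Mcm5). The means over the 8 libraries put mature osteoblasts lowest of the 6 classes for 40 of 40 members. Ptprc cells were highest for 33 members, the remaining cells for 5 and differentiating osteoblasts for 2. Among the 3 osteoblast stages 21 of 22 mitosis members had their highest mean in differentiating osteoblasts and 13 of 18 S phase members in early osteoblasts. These orders are descriptions of the means and were not tested. Within libraries the sums of the 2 groups did not part: the differentiating sum was above the early one in 5 of 8 libraries for the mitosis members (median ratio 1.10) and in 5 of 8 for the S phase members (median ratio 1.13). The early S phase sums were highest in Het libraries 3 and 4, at 1093 and 1127 CPM, from 22 and 23 cells. In sums over a class, fewer dividing cells and less of each RNA per cell cannot be told apart.

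**Figure D1:**
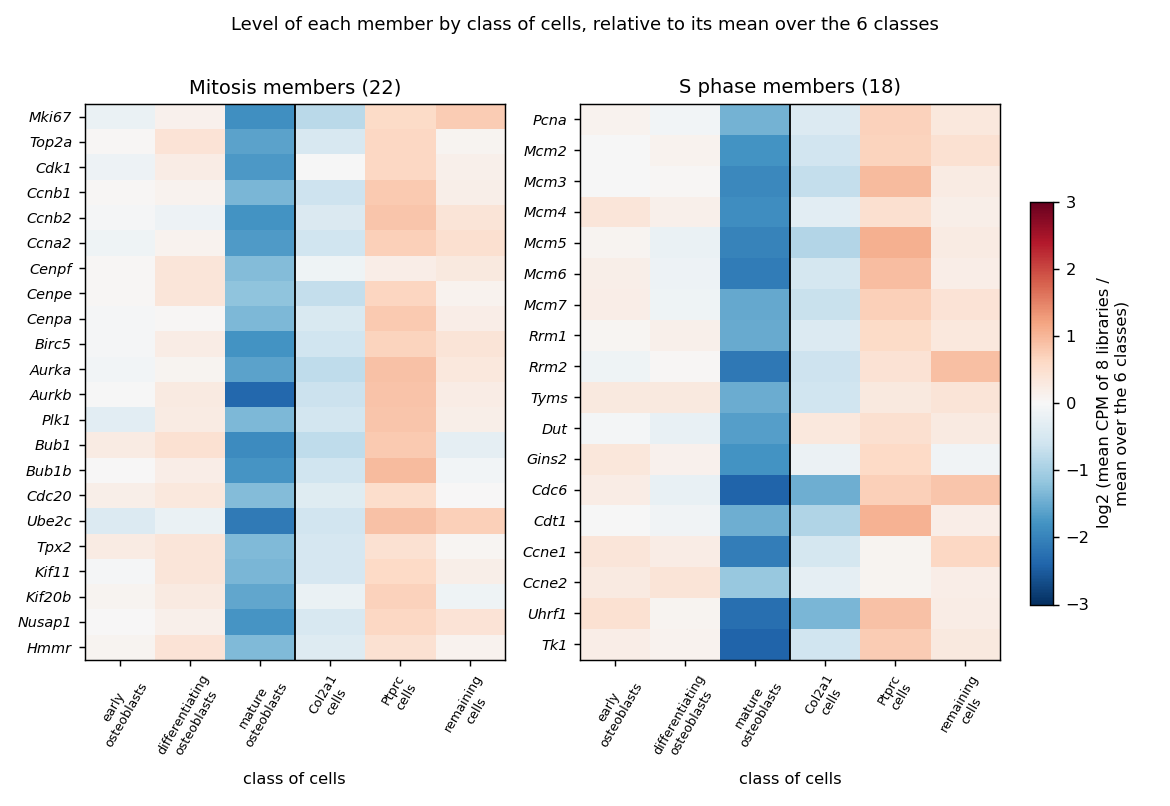
Level of each of the 22 mitosis members (left) and 18 S phase members (right) in 6 classes of cells (columns), as the log2 of the mean CPM of 8 libraries over the mean of the 6 classes. The mature osteoblast column is the lowest in all 40 rows, and the Ptprc column is the highest in 33.

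From differentiating to mature osteoblasts all 40 members fell. The comparison asks whether osteoblasts with more collagen RNA hold less RNA of dividing cells, with each library compared with itself. Called by edgeR's quasi-likelihood test with Benjamini-Hochberg adjustment over all genes tested, 40 of 40 members were lower, against 16.1% of all 11187 genes. Members too low for the fit in mature osteoblasts alone, such as Ccne1, may have passed the low-count filter here through their differentiating levels. Where that is so, lower was the likelier outcome from the start. The median log2 difference was -1.31, or 0.405-fold (all genes -0.03). The medians of the mitosis and S phase members, -1.26 and -1.37, were close. Of the 40, 32 were lower in each of the 8 libraries, and for 25 the 2 stages did not overlap. Neither of these counts was set against all genes, so both only describe the members.

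Mki67, the chromosome coat protein that marks cycling cells, ran from 93.6 through a median of 172 to 262 CPM in differentiating osteoblasts and from 4.51 through 46.7 to 84.7 CPM in mature ones. The fitted log2 difference was -1.45 ± 0.29 (SE, n = 8 libraries, edgeR adjusted p = 0.00214). Top2a, the topoisomerase that untangles replicated chromosomes, went from 182, 276 and 325 CPM (lowest, median, highest) to 24.1, 53.0 and 140 CPM, with a log2 difference of -1.66 ± 0.26 (edgeR adjusted p = 0.000334). Neither gene's ranges overlapped. Cdk1, the kinase that drives entry into mitosis, fell from 34.1, 71.4 and 122 CPM to 0, 21.4 and 31.2 CPM (-1.34 ± 0.29, edgeR adjusted p = 0.00343). Its 0 was in Het library 8, where 3 UMIs would have been 4.51 CPM. That library held the fewest mature osteoblasts, 42, and without it all 40 members were still lower.

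The S phase members fell with a narrower spread, and the 6 smallest p-values were all theirs. Dut, which keeps uracil out of DNA, ran from 56.5, 69.0 and 89.8 CPM to 21.1, 25.2 and 34.6 CPM (-1.07 ± 0.09, edgeR adjusted p = 1.94e-06). Mcm4, Mcm5 and Mcm6 are subunits of the helicase that opens the DNA at the replication fork. Mcm4 went from 26.0, 35.7 and 51.3 CPM to 3.01, 9.82 and 16.6 CPM (-1.54 ± 0.15), Mcm5 from 17.6, 28.4 and 36.3 CPM to 4.0, 8.07 and 10.8 CPM (-1.36 ± 0.14), and Mcm6 from 32.8, 38.8 and 62.9 CPM to 7.33, 10.4 and 15.9 CPM (-1.47 ± 0.15). Their edgeR adjusted p-values lay between 8.71e-06 and 1.71e-05. Rrm1, the large subunit of the enzyme that makes deoxynucleotides, went from 51.4, 57.2 and 86.2 CPM to 9.99, 19.4 and 25.5 CPM (-1.26 ± 0.13, edgeR adjusted p = 1.33e-05). Pcna, the sliding clamp of the DNA polymerases, went from 32.6, 42.0 and 87.5 CPM to 9.40, 16.7 and 28.6 CPM (-0.92 ± 0.10, edgeR adjusted p = 3.16e-05). In each of these 6 genes the lowest differentiating library lay above the highest mature one. Ccne1, the cyclin that starts S phase, fell from 10.2, 17.5 and 27.4 CPM to 0.666, 2.85 and 10.4 CPM (-1.69 ± 0.27, edgeR adjusted p = 0.000411), and its ranges touched, though it was lower in 8 of 8 libraries.

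The largest drops among the 40 were those of Tk1, the thymidine kinase of S phase (-1.99), and Aurkb, the kinase that corrects chromosome attachment (-1.98). The smallest were those of Ccnb1, the cyclin partner of Cdk1 (-0.90), and Cenpa, the histone of the centromere (-0.91). Ccnb1 was lower in 6 of 8 libraries. Within kit version 3, 38 of 39 tested members were called lower, against 11.2% of all genes, and within kit version 3.1, 23 of 40, against 9.29%. Leaving collagen genes out of the totals, so that the collagen RNA that defines maturity did not dilute the other genes, left 40 of 40 lower with a median of -1.30, against 15.6% of all genes.

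Mature osteoblasts were also below early ones. By edgeR's quasi-likelihood test 24 of 40 members were lower and 0 higher, 16 of 18 S phase and 8 of 22 mitosis members, against 14% of all genes lower. The median log2 difference was -1.05. Uhrf1, which carries DNA methylation over to the new strand, ran from 16.1, 24.2 and 88.2 CPM in early to 1.5, 4.91 and 9.88 CPM in mature osteoblasts (-1.94 ± 0.34, edgeR adjusted p = 0.000737). Dut was lower by -1.15 ± 0.16 on the log2 scale, Mcm6 by -1.60 ± 0.25, Mcm4 by -1.60 ± 0.26, Mcm5 by -1.42 ± 0.28 and Pcna by -0.95 ± 0.18, with edgeR adjusted p-values from 0.000124 to 0.0017. Mki67 (-1.04, edgeR adjusted p = 0.0316), Top2a (-1.08, 0.0285) and Ccne1 (-1.55, 0.0427) passed, and Cdk1 did not (-0.93, 0.068). The count rested on the cells chosen: 11 members were called lower with likely doublets left out (12% of all genes), 7 with osteoblasts chosen by 3 UMIs in place of 2 (10.1%), 36 with 1 UMI (18%), and 10 within kit version 3.1 (12.5%). Within kit version 3, where the cartilage markers of early osteoblasts were low, 25 were called lower (9.05%). Likely doublets made up 17.4% of early and 4.19% of mature osteoblasts, and the part of the cartilage markers of early osteoblasts in the kit version 3.1 count was not tested.

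Between differentiating and early osteoblasts few members were called. Of 40 members 2 were higher in differentiating cells by edgeR's quasi-likelihood test, against 6.09% of all genes. Top2a was at 74.0, 93.4, 344, 299, 214, 186, 137 and 267 CPM in early osteoblasts of libraries 1 to 8 and at 193, 239, 317, 319, 203, 325, 182 and 313 CPM in differentiating ones (0.56 ± 0.16, edgeR adjusted p = 0.0292). Kif11, the motor that pushes spindle poles apart, was at 11.6, 28.0, 33.1, 49.0, 48.4, 44.0, 37.6 and 61.3 CPM and then at 30.9, 27.8, 56.7, 44.7, 50, 81.9, 48.5 and 73.9 CPM (0.55 ± 0.16, edgeR adjusted p = 0.0346). Each was higher in 6 of 8 libraries, with overlapping ranges. Neither call was firm: 0 members were called without WT library 1, without WT library 6, 1 without WT library 2 or any of Het libraries 3, 7 and 8, 4 without WT library 5, and 0 with mitochondrial UMIs under 5% or with cells carrying blood markers left out. Mki67 (0.43, edgeR adjusted p = 0.112), Cdk1 (0.40, 0.225), Pcna (0.01, 0.993), Mcm5 (-0.04, 0.958) and Ccne1 (0.30, 0.676) did not pass.

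Summed over the 22 mitosis members, libraries 1 to 8 held 514, 676, 1979, 2072, 1367, 889, 1019 and 1496 CPM in early osteoblasts, 1220, 1249, 2289, 1982, 1123, 1733, 878 and 1551 CPM in differentiating osteoblasts and 353, 315, 390, 326, 627, 513, 803 and 66.2 CPM in mature osteoblasts. The mature sum was below the differentiating one in 8 of 8 libraries, with a median ratio of 0.271 (0.0427 to 0.915). Library 7 kept most of its mitosis RNA and library 8 least. The 18 S phase members summed to 420 to 1127 CPM in early, 499 to 835 CPM in differentiating and 131 to 281 CPM in mature osteoblasts, and the ratio of mature to differentiating was more even (median 0.289, 0.179 to 0.466).

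**Figure D2:**
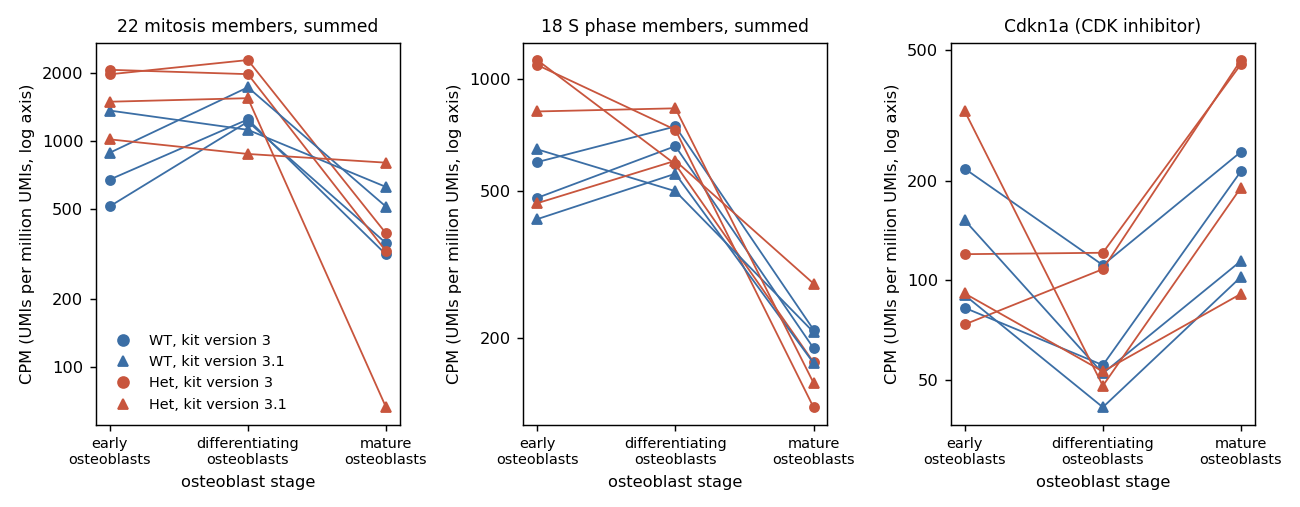
Sum of the 22 mitosis members (left), sum of the 18 S phase members (middle) and Cdkn1a (right) in CPM on log axes by osteoblast stage, with 1 line per library, circles for kit version 3, triangles for kit version 3.1, blue for WT and red for Het. Both sums fall from differentiating to mature cells in 8 of 8 libraries, where Cdkn1a rises in 8 of 8.

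The same fall was seen in single cells. Each cell was thinned at random to 2000 UMIs so that depth did not set the count, and a cell was counted when at least 3 of the 40 members were detected. The share of such cells in libraries 1 to 8 was 7.41, 8.70, 33.3, 26.1, 17.9, 12.0, 17.5 and 26.9% of early osteoblasts, 22.1, 25, 35.8, 30.4, 19.1, 19.1, 17.3 and 30.6% of differentiating osteoblasts and 4.11, 7.79, 7.59, 10.9, 8.22, 8.70, 10.6 and 4.88% of mature osteoblasts. Mature minus differentiating was -17.1 ± 7.51 percentage points (SD, n = 8), lower in 8 of 8 libraries, and mature minus early was -10.9 ± 9.22, also lower in 8 of 8. The second difference was lower in 7 of 8 libraries when likely doublets were left out (8.11 points higher in library 2), when cells carrying blood markers were left out (7.94 points higher in library 2) and when collagen genes were left out (2.05 points higher in library 1). Without thinning the shares were 30.4 to 60% of mature and 48.5 to 76.1% of differentiating osteoblasts. No p is given for this share, since it scores the members together. Exact (Clopper-Pearson) 95% intervals, which cover counting error only, ran for instance from 14.6 to 57.0% in the 21 early osteoblasts of library 3 and from 5.34 to 12.0% in the 292 mature osteoblasts of library 5.

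**Figure D3:**
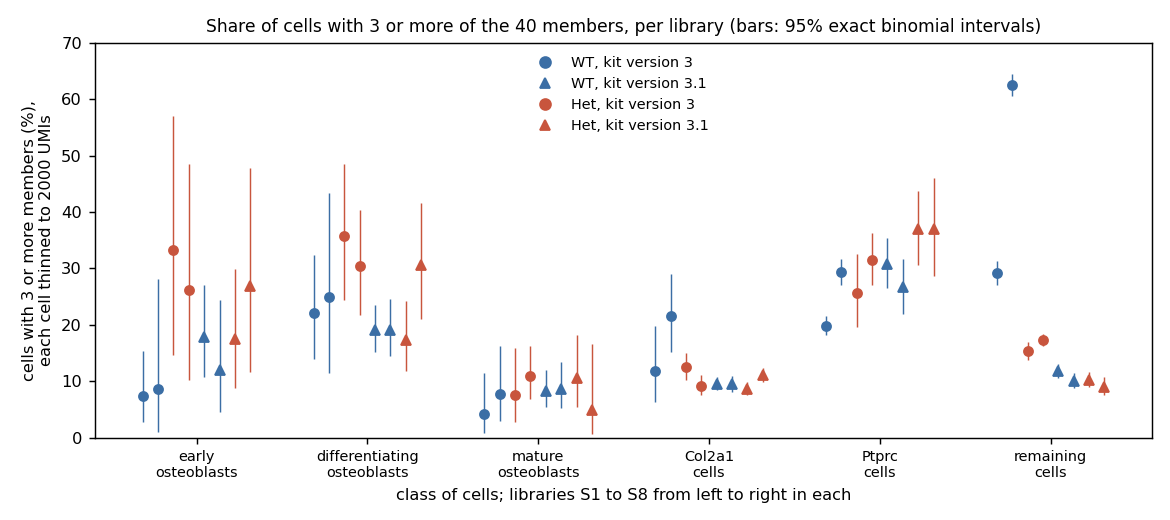
Share of cells with at least 3 of the 40 members detected after thinning to 2000 UMIs, in % (vertical axis), for each class and libraries 1 to 8 from left to right, with exact 95% intervals as bars, blue for WT, red for Het, circles for kit version 3 and triangles for kit version 3.1. The mature osteoblast shares sit between 4.11 and 10.9%, and the remaining cells of library 2 reach 62.6%.

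Mature neutrophil-like cells, a blood cell type regarded as postmitotic, were taken for comparison. They carried at least 2 of Cxcr2, Il1b, Csf3r and Retnlg and no UMI of 5 granule genes of their precursors. At least 3 members were detected in 44 of 574 of them after thinning, and their share was 0 to 20% per library. The 2 libraries at 0 held 11 and 7 such cells, which allow shares of up to 27.3 and 42.9%. The median depth before thinning was 2175 UMIs, against 15574 in mature osteoblasts. The class was not free of RNA of dividing cells: its mitosis sum was 814, 1039 and 2656 CPM in libraries 1, 2 and 6, above the early and mature osteoblasts of the same libraries, and 22.7% of its cells with at least 3 members were likely doublets. Its shares are therefore not a clean background. The mature osteoblast shares lay within its range and are not read as dividing cells or as background. The early shares of libraries 1, 2, 5, 6 and 7 and the differentiating shares of libraries 5, 6 and 7 lay within it too, and in library 6 the neutrophil-like share, 20% of 25 cells, was above the differentiating one, 19.1%. Those shares are likewise not told from background here. Only libraries 1 and 2 held more than 100 thinned neutrophil-like cells, at 7.20 and 7.69%, and there the differentiating osteoblasts were at 22.1 and 25%.

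The share was also followed along the Col1a1 share of a cell's UMIs. In osteoblasts of all libraries pooled, 11.6% of cells with under 0.25% Col1a1 had at least 3 members, then 14.9, 21.6 and, at 0.75 to 1.5% Col1a1, 25.2% (exact 95% interval 20.8 to 30%, 365 cells). From there the share went down through 23.4, 17.1, 13.4, 9.57 and 7.27% to 2.63% (1.14 to 5.12%, 304 cells) above 10% Col1a1. The mitosis sum followed a like course, from 594 CPM in the lowest bin through 1746 CPM at 0.5 to 0.75% Col1a1 to 74.8 CPM in the highest. With collagen genes left out before thinning, the highest bin was at 4.28% and the bin at 0.75 to 1.5% at 26.0%. The genotypes did not follow 1 course in the lower bins. WT cells went from 12.8% in the lowest bin to 6.58, 17.7 and 25%, and then down through 20.9 and 13.0% in the differentiating bins. Het cells went from 7.41% in the lowest bin to 28.9% at 0.25 to 0.5% Col1a1 and stayed between 25 and 28.1% up to 3.5%. The lowest Het bin held 27 cells. With collagen genes left out, that bin was at 10.6% in WT and 14.8% in Het, the other order. The bin at 0.25 to 0.5% was then at 3.95% in WT and 26.7% in Het, and the Het bin at 2.5 to 3.5% was at 20.7%. Above 3.5% both went down bin by bin. Pooled cells are not replicates, the libraries fill the bins unequally, and the curve is a description.

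**Figure D4:**
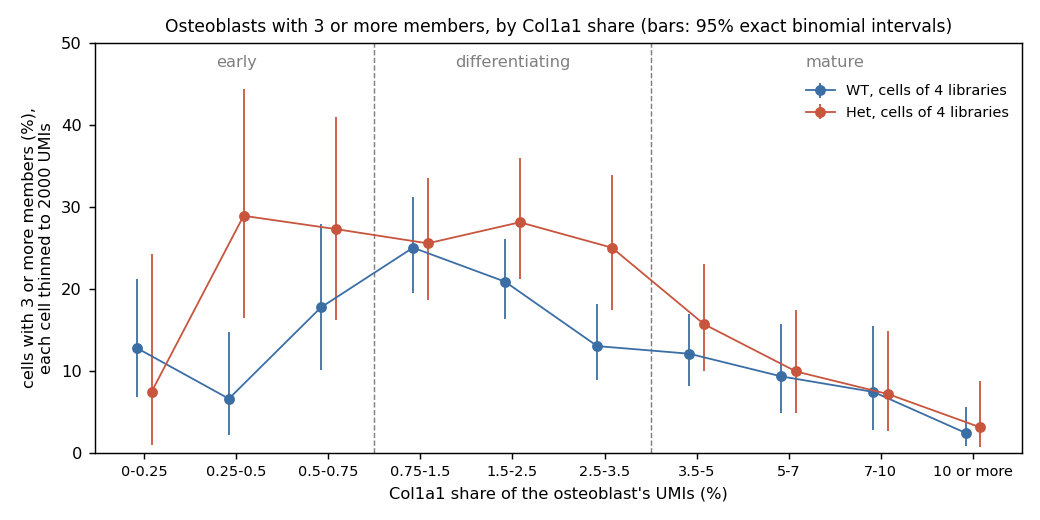
Share of osteoblasts with at least 3 members detected after thinning, in % (vertical axis), against the Col1a1 share of UMIs in 10 bins (horizontal axis), with the cells of the 4 WT libraries (blue) and of the 4 Het libraries (red) pooled, exact 95% intervals as bars and dashed lines between the stages. Above 10% Col1a1 the share is 2.42% in WT and 3.09% in Het, and from 0.25 to 0.5% it is 6.58% in WT and 28.9% in Het, where there were 76 and 45 cells.

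Other genes of the cycle, from lists that hold no member, moved the same way from differentiating to mature osteoblasts. Of 31 other mitosis genes 28 were lower and of 30 other S phase genes 28 were lower (edgeR, median log2 -1.28 and -1.13), against 16.1% of all genes. Of 21 tested G1 control genes 12 were lower and 2 higher, where 14.8% of all genes were higher. The lower ones included E2f7 (-1.91), E2f1 (-1.27), E2f8 (-1.25) and Foxm1 (-1.20), factors of the E2F and MuvB programmes, and Ccnd1, the cyclin of G1 (-0.41, edgeR adjusted p = 0.017). The higher ones were Rb1 (0.71), which holds E2F back, and E2f5 (0.35), one of the E2F proteins that repress.

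The inhibitors of cyclin-dependent kinases did not move together. Of 7 tested, 4 were lower and 1 was higher, against 16.1% and 14.8% of all genes. Cdkn1a, the p21 inhibitor that halts the cycle, was at 55.3, 111, 121, 108, 52.2, 41.2, 52.9 and 47.9 CPM in differentiating osteoblasts of libraries 1 to 8 and at 214, 245, 452, 466, 115, 102, 91.0 and 191 CPM in mature ones. It was higher in 8 of 8 libraries, 3.73-fold in the fit (log2 1.90 ± 0.17, edgeR adjusted p = 3.55e-06). The 4 lower ones were Cdkn3 (-1.14), Cdkn2c (-0.96), Cdkn1c (-0.70, edgeR adjusted p = 0.0193) and Cdkn2d (-0.62). From early to differentiating osteoblasts the direction of Cdkn1a was the other way (-0.92 ± 0.25, edgeR adjusted p = 0.0263). Cdkn2c rose there (0.72, edgeR adjusted p = 0.00551). From early to mature osteoblasts 12 of 31 other mitosis genes and 23 of 30 other S phase genes were lower, against 14% of all genes. Cdkn1a was higher there (1.01 ± 0.33, edgeR adjusted p = 0.0364). Ccnd1 and Cdkn1c did not pass from early to mature (-0.33 and -0.39) or from early to differentiating osteoblasts (-0.00 and 0.32), with edgeR adjusted p-values from 0.206 to 0.998.

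Against Ptprc cells, osteoblasts as a whole were low in nearly all members. By edgeR's quasi-likelihood test 37 of 40 were lower, against 35.3% of all genes, with a median log2 difference of -1.11. Mcm5 stood at 12.2, 17.5 and 26.9 CPM (lowest, median, highest) in osteoblasts and at 47.5, 68.6 and 81.8 CPM in Ptprc cells (-1.81 ± 0.11, edgeR adjusted p = 1.66e-07). Mcm6 (-1.58), Cdt1 and Mcm3 (-1.58 and -1.52), which license origins, Uhrf1 (-1.39) and Rrm1 (-0.95) had the next smallest p-values. Mki67 (-1.11), Top2a (-0.91), Cdk1 (-1.11) and Pcna (-1.19) were also lower, and Ccne1 was not called (-0.50, edgeR adjusted p = 0.0734). Of the G1 control genes 3 were higher and 14 lower, where 33.5% of all genes were higher, and Ccnd1 was among the lower ones (-1.05, edgeR adjusted p = 0.0203).

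Against Col2a1 cells the members split. By edgeR's quasi-likelihood test 4 of 40 were higher in osteoblasts and 2 lower, against 28.4% and 28.8% of all genes, so the share called was below that of all genes. Dut was at 39.7, 50.2 and 62.0 CPM in osteoblasts and at 79.8, 91.0 and 156 CPM in Col2a1 cells, without overlap (-1.04 ± 0.09, edgeR adjusted p = 2.44e-06). Cdk1 was lower by -0.47 ± 0.15 on the log2 scale (edgeR adjusted p = 0.0216). Uhrf1 (0.77), Cdc6, which loads the helicase (0.59), Cenpe, a motor of the kinetochore (0.49), and Bub1, a kinase of the spindle checkpoint (0.47), were higher. Mki67 (0.32), Top2a (0.17), Pcna (-0.20), Mcm5 (0.08) and Ccne1 (0.06) did not pass, with edgeR adjusted p-values from 0.141 to 0.774, nor did Ccnd1 (0.21, 0.441). The kits did not give the same picture: within kit version 3, 0 members were higher and 2 lower, and within kit version 3.1, 25 were higher and 2 lower, where 30% of all genes were higher. The other counts within a kit are not set against all genes. Without WT library 2, 11 were higher, against 28.6% of all genes, and 2 lower. Of the Col2a1 cells, 1135 of 11336 had at least 3 members after thinning, 8.59 to 12.5% in 7 libraries and 21.5% in library 2.

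Against the remaining cells 0 of 40 members were called either way by edgeR's quasi-likelihood test, where 35.5% of all genes were. DESeq2 also called 0, and none of the 40 reached an unadjusted p below 0.05. The 3 smallest p-values were those of Dut (-0.51), Pcna (-0.52) and Mcm4 (-0.36), with edgeR adjusted p-values of 0.252 to 0.332. Mki67 (-0.23), Top2a (0.16), Cdk1 (-0.09), Mcm5 (-0.35) and Ccne1 (-0.25) had edgeR adjusted p-values from 0.532 to 0.882. Ccnd1 was lower (-0.41, edgeR adjusted p = 0.0361), and Cdkn1a did not pass (0.33, 0.743). The remaining cells ranged widely: Mki67 was at 487 and 1074 CPM in libraries 1 and 2 and at 56.5 to 192 CPM in the other 6. Libraries 1 and 2 are those with the many cells carrying blood markers. With such cells left out, 11 members were higher in osteoblasts, against 20.2% of all genes, and within kit version 3.1, which lacks both libraries, 28 were higher, against 21.3% of all genes.

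Between Het and WT osteoblasts 0 of 40 members were called by edgeR's quasi-likelihood test with kit version in the model, where 0.00828% of all genes were. DESeq2 called 0, and in both tools 3 members had an unadjusted p under 0.05, all higher in Het. Here and below, counts at an unadjusted p stand without the share of all genes at that cut. They describe the members only. The 40 differences leaned upward, 37 above 0 with a median of 0.21 on the log2 scale (all genes -0.00). Mki67 was at 70.1, 77.4, 80.0 and 119 CPM in WT libraries 1, 2, 5 and 6 and at 133, 103, 101 and 153 CPM in Het libraries 3, 4, 7 and 8. The groups overlapped through WT library 6 (0.47 ± 0.19, edgeR adjusted p = 0.544). Cenpe was at 30.3, 25.3, 41.8 and 52.6 CPM in WT and at 53.9, 46.7, 50.9 and 57.1 CPM in Het (0.45 ± 0.17, edgeR adjusted p = 0.53). Bub1b, a checkpoint protein that holds back chromosome separation, was at 9.06, 5.53, 11.3 and 15.3 CPM in WT and at 18, 12.6, 16.3 and 17.3 CPM in Het (0.57 ± 0.22, edgeR adjusted p = 0.54). Only 1 WT library, library 6, lay within the Het range of each. Top2a was at 102, 95.8, 163 and 207 CPM in WT and at 168, 129, 162 and 229 CPM in Het (0.29 ± 0.17, edgeR adjusted p = 0.656). Cdk1 was at 39.4, 35.5, 41.6 and 42.5 CPM in WT and at 64.7, 38.7, 33.8 and 51.1 CPM in Het (0.17 ± 0.20, edgeR adjusted p = 0.853). Both overlapped widely between the genotypes. Pcna was at 31.2, 18.9, 35.5 and 31.0 CPM in WT and at 28.4, 23.9, 40.3 and 72.8 CPM in Het (0.40 ± 0.21, edgeR adjusted p = 0.623). Mcm5 was at 21.0, 19.4, 15.9 and 12.2 CPM in WT and at 16.2, 16.7, 18.3 and 26.9 CPM in Het (0.20 ± 0.20, edgeR adjusted p = 0.825). Ccne1 was at 9.06, 7.83, 9.31 and 10.2 CPM in WT and at 9.34, 7.01, 14.9 and 20.9 CPM in Het (0.44 ± 0.21, edgeR adjusted p = 0.592). In these S phase genes Het library 8 was the highest of the 8 libraries. The stages were mixed unequally: mature cells made up 30, 57.9, 36.4 and 40.9% of the osteoblasts of WT libraries 1, 2, 5 and 6 and 47, 60.6, 32.7 and 26.4% of those of Het libraries 3, 4, 7 and 8. Library 8 thus had the lowest share of mature cells, and the part of the mix in these values was not tested. Ccnd1 (0.76), Cdkn1a (0.60) and Cdkn1c (0.57) did not pass, with edgeR adjusted p-values from 0.547 to 0.578.

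The share of osteoblasts with at least 3 members after thinning was 11.7, 12.1, 14.7 and 14.1% in WT libraries 1, 2, 5 and 6 and 22.2, 18.3, 15.1 and 23.0% in Het libraries 3, 4, 7 and 8, without overlap. It was 13.2 ± 1.5% in WT and 19.7 ± 3.64% in Het (SD, n = 4 each), higher in Het by 6.49 points, by 8.33 points within kit version 3 and by 4.66 points within kit version 3.1. Without thinning the groups overlapped and the difference was 1.72 points, with Het at -4.03 points against WT within kit version 3 and 7.48 points above WT within kit version 3.1. By stage, the thinned difference was 7.20 points in differentiating and 1.29 points in mature osteoblasts, where the groups overlapped.

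The kits differed in which members leaned upward. Within kit version 3, all 22 mitosis members were above 0 (median 0.78) and 10 were called higher in Het, against 3.17% of all genes, while the S phase members had a median of -0.05. Within kit version 3.1, 18 of 22 mitosis members were below 0 (median -0.27), 17 of 18 S phase members were above 0 (median 0.39) and none was called. Each of these fits had 2 libraries per genotype. Markers of other cells moved with the kit version 3 contrast: 16.1 and 15.0% of osteoblasts carried blood markers in WT libraries 1 and 2, against 2.98 and 4.10% in Het libraries 3 and 4. The 11 haematopoietic markers, all detected, summed to 744 and 405 CPM in WT and to 44.6 and 140 CPM in Het. The 10 osteoblast markers not used for the choice summed to 34930 and 44240 CPM in WT and to 16370 and 19800 CPM in Het. With cells carrying blood markers left out, 0 members were called over both kits by edgeR and the median was 0.27, and within kit version 3 their part in the result was not tested.

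**Figure D5:**
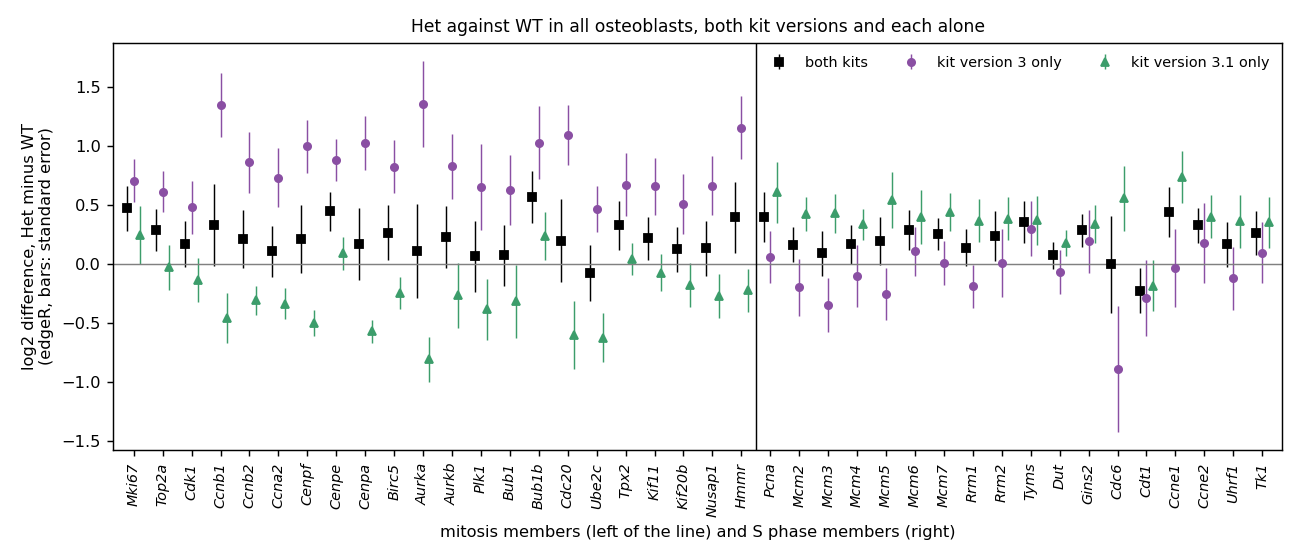
Log2 difference between Het and WT osteoblasts for each of the 40 members (bars, standard error), in both kit versions together (black squares), in kit version 3 (purple circles) and in kit version 3.1 (green triangles), with mitosis members left of the line and S phase members right of it. The mitosis members lie above 0 in kit version 3 (22 of 22) and mostly below 0 in kit version 3.1 (18 of 22).

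The difference between the kits was itself tested. Of 40 members 4 had a lower Het against WT difference in kit version 3.1 than in kit version 3 by edgeR's quasi-likelihood test, against 1.05% of all genes, and 0 had a higher one. They were all mitosis members. Cenpa was at 40.1 and 23.5 CPM in WT and 77.3 and 52.7 CPM in Het with kit version 3, and at 59.3 and 64.1 CPM in WT and 45.0 and 43.5 CPM in Het with kit version 3.1 (difference of differences -1.60 ± 0.28, edgeR adjusted p = 0.0229). Aurka, the kinase of the spindle poles, was at 5.25 and 5.07 CPM in WT and 16.5 and 9.68 CPM in Het, and then at 12.6 and 13.8 CPM in WT and 8.07 and 8.05 CPM in Het (-2.19 ± 0.40, edgeR adjusted p = 0.026). In both genes each Het library was above each WT library in 1 kit and below it in the other. Cenpf, a kinetochore protein (-1.51 ± 0.29, edgeR adjusted p = 0.0316), and Ccnb1 (-1.81 ± 0.37, edgeR adjusted p = 0.0394) completed the 4. Mki67 (-0.49), Top2a (-0.66), Cdk1 (-0.63), Pcna (0.54), Mcm5 (0.76) and Ccne1 (0.75) did not pass, with edgeR adjusted p-values from 0.26 to 0.544. Of the 8 kinase inhibitors 1 was lower and 1 higher, where 1.11% of all genes were higher. Cdkn1c was at 206 and 163 CPM in WT and 444 and 422 CPM in Het with kit version 3, and at 451 and 369 CPM in WT and 357 and 453 CPM in Het with kit version 3.1 (-1.41 ± 0.22, edgeR adjusted p = 0.0183). Cdkn2b was higher (1.85 ± 0.33, edgeR adjusted p = 0.0251), and of the other mitosis genes Cdca3 was lower (-1.46 ± 0.31, edgeR adjusted p = 0.0416). Ccnd1 (-1.38, 0.115) and Cdkn1a (-0.80, 0.415) did not pass. All 22 mitosis members had a difference below 0 (median -1.07) and all 18 S phase members one above 0 (median 0.40). The calls were not firm: 0 were made without WT library 1, without Het library 3, without Het library 7 or with mitochondrial UMIs under 5%, 1 was made without WT library 5 and 2 without WT library 6. The kit, the version of the counting software and the pools of pups changed together and cannot be told apart.

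In early osteoblasts 0 of 37 tested members were called between Het and WT by edgeR, where 0% of all genes were. Of these, 9 had an unadjusted p under 0.05, all higher in Het, and DESeq2 called 0. The median was 0.73 on the log2 scale. Mcm7, a helicase subunit, was at 47, 49.8, 33.5 and 16.1 CPM in WT libraries 1, 2, 5 and 6 and at 112, 93.1, 37.6 and 61.3 CPM in Het libraries 3, 4, 7 and 8 (0.93 ± 0.28). Mcm6 was at 35.5, 31.1, 35.9 and 32.2 CPM in WT and at 86.9, 103, 42.9 and 50.1 CPM in Het, without overlap (0.84 ± 0.26). Gins2, a partner of the helicase, was at 16.2, 3.12, 17.2 and 9.66 CPM in WT and at 58.0, 49.0, 18.8 and 33.4 CPM in Het, also without overlap (1.33 ± 0.44). The edgeR adjusted p was 1 for each. Mki67 (0.83), Top2a (0.83), Cdk1 (0.49), Pcna (0.52), Mcm5 (0.36) and Ccne1 (0.76) likewise had an edgeR adjusted p of 1, as did Ccnd1 (0.48), Cdkn1a (0.12) and Cdkn1c (0.33).

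Within kit version 3, 15 of 27 tested members of early osteoblasts were called higher in Het, against 3% of all genes, 12 of them mitosis members. Top2a was at 74.0 and 93.4 CPM in WT and at 344 and 299 CPM in Het (1.98 ± 0.23, edgeR adjusted p = 0.00251 within that kit). Mki67 (1.81, 0.0167) and Cdk1 (1.39, 0.033) passed as well. Within kit version 3.1 the median of 39 members was -0.05 and 0 were called. Blood markers were carried by 13.6 and 17.4% of early osteoblasts in WT libraries 1 and 2, against 4.54 and 0% in Het libraries 3 and 4, and the haematopoietic markers, of which 10 of 11 were detected, summed to 1013 and 533 CPM against 236 and 24.5 CPM. With such cells left out, the median over both kits was 0.84 with 0 called by edgeR, and within kit version 3 their part in the result was not tested. Cartilage markers, of which 12 of 13 were detected, summed to 1735 and 187 CPM in WT libraries 1 and 2 and to 4843 and 2738 CPM in Het libraries 3 and 4, and with kit version 3.1 to 39160 and 26700 CPM in WT and 15970 and 15520 CPM in Het. The unused osteoblast markers summed to 26730 and 41880 CPM in WT and to 9359 and 23860 CPM in Het within kit version 3. The part of either list in the result was not tested. The 3 smaller kit version 3 libraries held 22 or 23 early osteoblasts each. With osteoblasts chosen by 3 UMIs in place of 2, the median over both kits was -0.04. The share of early osteoblasts with at least 3 members after thinning was 11.5 ± 4.68% in WT and 26.0 ± 6.48% in Het (SD, n = 4 each), higher in Het by 21.7 points within kit version 3 and by 7.29 points within kit version 3.1. The genotypes overlapped narrowly, with WT up to 17.9% and Het from 17.5%. Thinned to 5000 UMIs the differences within the 2 kits were 31.1 and 2.10 points, and with at least 5 members 19.5 and 3.17 points. Without thinning the difference was 4.07 points, and within kit version 3 its direction turned: Het was at -5.34 points against WT there and 13.5 points above WT in kit version 3.1.

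In differentiating osteoblasts 0 of 40 members were called by edgeR, where 0.00981% of all genes were, 0 had an unadjusted p under 0.05, and DESeq2 called 0 (median 0.14). Pcna was at 42.3, 36.3, 43.5 and 41.7 CPM in WT and at 40.4, 32.6, 51.1 and 87.5 CPM in Het (0.38 ± 0.20, edgeR adjusted p = 0.68), and the groups overlapped. Tyms (0.41), which makes thymidylate, and Mcm6 (0.34) came next, with adjusted p-values of 0.68 and 0.683. Mki67 (0.45), Top2a (0.20), Cdk1 (0.17), Mcm5 (0.30) and Ccne1 (0.44) had edgeR adjusted p-values from 0.694 to 0.889, and Ccnd1 (0.72), Cdkn1a (0.31) and Cdkn1c (0.26) from 0.629 to 0.741. The kits went apart here too: the mitosis members had a median of 0.76 within kit version 3, with 22 of 22 above 0, and of -0.36 within kit version 3.1, with 20 of 22 below 0. The S phase medians were -0.08 and 0.39. Top2a was at 0.57 and -0.15, Pcna at -0.13 and 0.61, Mcm5 at -0.27 and 0.61 and Ccne1 at -0.30 and 0.74 on the log2 scale in kit versions 3 and 3.1, and 0 members were called by edgeR within either kit. An unadjusted p under 0.05 was reached by 19 members within kit version 3, all higher, and by 6 higher and 6 lower within kit version 3.1.

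In mature osteoblasts 0 of 36 tested members were called, where 0.518% of all genes were, 1 had an unadjusted p under 0.05, and DESeq2 called 0 (median -0.09). That 1 was Ube2c, which attaches ubiquitin to mitotic proteins, at 31.2, 29.7, 32.6 and 24.5 CPM in WT and at 18.7, 13.3, 31.2 and 3.01 CPM in Het (-0.73 ± 0.31, edgeR adjusted p = 0.404). Het library 7 alone lay within the WT range. Mcm6 (-0.49) and Rrm2 (-0.47) followed. Mki67 (-0.03), Top2a (-0.12), Cdk1 (-0.34), Pcna (0.37) and Mcm5 (-0.13) had edgeR adjusted p-values from 0.542 to 0.994, and Ccne1 was too low for the fit. Within kit versions 3 and 3.1, Mki67 was at -0.25 and 0.19, Top2a at -0.43 and 0.12, Mcm5 at -0.72 and 0.44 and Pcna at 0.20 and 0.46 on the log2 scale. The S phase medians were -0.59 (13 tested) and 0.34 (17 tested) and the mitosis medians -0.10 (18 tested) and -0.16 (22 tested). Haematopoietic markers summed to 671 and 488 CPM in WT libraries 1 and 2 and to 32.0 and 164 CPM in Het libraries 3 and 4. Unused osteoblast markers summed to 37850 and 49020 CPM against 22330 and 21560 CPM. Blood markers were carried by 16.4 and 18.2% of these cells against 2.53 and 5.21%. The part of these markers in the result was not tested. Of the G1 control genes Ccnd2, a cyclin of G1, was higher in Het mature osteoblasts (0.64 ± 0.13, edgeR adjusted p = 0.0495), while Ccnd1 (0.65, 0.344), Cdkn1a (0.63, 0.276) and Cdkn1c (1.15, 0.266) did not pass.

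Whether the genotype difference itself changed between stages was tested for mature against early osteoblasts. Of 40 members 0 were called by edgeR, where 0% of all genes were, and DESeq2 called 0. Of the 40, 39 differences were below 0 (median -0.87), and 6 had an unadjusted p under 0.05. Mcm6 (-1.38 ± 0.36), Cenpa (-1.28 ± 0.38) and Ube2c (-1.62 ± 0.57) had the smallest p-values, each with an edgeR adjusted p of 1. Mki67 (-1.18), Top2a (-1.21), Cdk1 (-1.06), Pcna (-0.10), Mcm5 (-0.51) and Ccne1 (-0.59) had an edgeR adjusted p of 1 as well, and so had Ccnd1 (0.12), Cdkn1a (0.50) and Cdkn1c (0.98).

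In the comparison classes the mitosis members were below 0 in Het against WT, and the S phase members varied with the kit in Col2a1 and Ptprc cells. In Col2a1 cells 0 of 40 were called by edgeR, where 0.103% of all genes were. An unadjusted p under 0.05 was reached by 17, all lower. DESeq2 called 2 lower, against 0.267% of all genes. All 22 mitosis members were below 0 (median -0.42), and the S phase members had a median of -0.08. Top2a was at 216, 233, 108 and 124 CPM in WT libraries 1, 2, 5 and 6 and at 145, 116, 89.3 and 102 CPM in Het libraries 3, 4, 7 and 8 (-0.50 ± 0.11, edgeR adjusted p = 0.268). Each Het library was below each WT library of its own kit. Birc5, which keeps Aurkb at the centromere (-0.66), and Nusap1, which bundles spindle microtubules (-0.53), had adjusted p-values of 0.27 and 0.306. Mki67 (-0.45), Cdk1 (-0.41), Pcna (0.07), Mcm5 (0.19) and Ccne1 (0.06) had edgeR adjusted p-values from 0.511 to 1, and Ccnd1 (-0.30), Cdkn1a (0.16) and Cdkn1c (0.33) from 0.535 to 0.945. The mitosis medians were -0.62 within kit version 3 and -0.36 within kit version 3.1. Within kit version 3, 2 members were called, of which Top2a was lower (-0.775, edgeR adjusted p = 0.0319 within that kit). That count is not set against all genes. The S phase medians were -0.42 within kit version 3, with 17 of 17 tested members below 0, and 0.07 within kit version 3.1, with 12 of 18 above 0. Pcna was at -0.41 and 0.22, Mcm5 at -0.40 and 0.38 and Ccne1 at -0.40 and 0.17 on the log2 scale in kit versions 3 and 3.1. Blood markers were carried by 9.90 and 7.33% of Col2a1 cells in WT libraries 1 and 2, against 1.18 and 0.886% in Het libraries 3 and 4. The haematopoietic markers, of which 10 of 11 were detected, summed to 1071 and 938 CPM there in WT and to 86.9 and 84.7 CPM in Het, and the erythroid markers reached 9430 CPM in library 2. With cells carrying blood markers left out, 0 members were called over both kits by edgeR and the mitosis median was -0.39, and within kit version 3 their part in the result was not tested.

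In Ptprc cells 0 of 40 were called by edgeR, where 0% of all genes were, 9 had an unadjusted p under 0.05, all lower, and DESeq2 called 0 (median -0.39). Nusap1 (-0.73), Aurka (-0.69) and Dut (-0.85) had the smallest p-values, with edgeR adjusted p from 0.193 to 0.221. Mki67 (-0.38), Top2a (-0.47), Cdk1 (-0.52), Pcna (-0.19), Mcm5 (-0.17) and Ccne1 (-0.54) had edgeR adjusted p-values from 0.242 to 0.735, and Ccnd1 (1.06), Cdkn1a (0.47) and Cdkn1c (1.07) from 0.144 to 0.387. The kits differed: the median of the 40 members was -0.74 within kit version 3 and -0.09 within kit version 3.1, where 15 of 18 S phase members were above 0. Pcna was at -0.69 and 0.28, Mcm5 at -0.67 and 0.33 and Mki67 at -0.73 and -0.04 on the log2 scale in kit versions 3 and 3.1. The makeup of the Ptprc cells moved with the kit version 3 contrast: the 11 haematopoietic markers, all detected, summed to 53710 and 46480 CPM in WT libraries 1 and 2 and to 14040 and 24850 CPM in Het libraries 3 and 4. Erythroid markers summed to 13240 and 35640 CPM against 12250 and 6421 CPM, and these libraries held 390 and 408 mature neutrophil-like cells against 22 and 39. Their part in the result was not tested. The share of Ptprc cells with at least 3 members went the other way from the sums, at 26.7 ± 4.86% in WT and 32.8 ± 5.40% in Het (SD, n = 4 each). It was higher in Het by 3.98 points within kit version 3 and by 8.25 points within kit version 3.1. The genotypes overlapped, at 19.8 to 30.8% in WT and 25.7 to 37.0% in Het. With at least 5 members the difference was 1.84 points, and -1.16 within kit version 3. With at least 3 mitosis members it was 0.694 points (-1.48 within kit version 3), and with at least 3 S phase members 3.40 points (1.28 within kit version 3). In the remaining cells 0 were called by edgeR, where 0% of all genes were. An unadjusted p under 0.05, with no all-gene share beside it, was reached by 34, all lower. DESeq2 called 13 lower, against 2.86% of all genes at its adjusted p under 0.05. Ccne1 was at 42.2, 86.1, 11.6 and 8.73 CPM in WT and at 12.7, 14.3, 5.39 and 5.64 CPM in Het (-1.86 ± 0.49, edgeR adjusted p = 0.216). Cdc6 (-2.22) and Rrm2 (-2.27) were the other smallest. Mki67 (-1.61), Top2a (-1.36), Cdk1 (-1.08), Pcna (-1.0) and Mcm5 (-1.35) had edgeR adjusted p-values from 0.314 to 0.381, and Ccnd1 (0.53), Cdkn1a (0.64) and Cdkn1c (0.89) from 0.338 to 0.363. WT libraries 1 and 2 lay far above the rest. With cells carrying blood markers left out, the median of the 40 members went from -1.36 to -0.25.

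The balance of S phase and mitosis RNA differed among stages of a library but not in 1 direction. The S phase sum was 0.455 to 0.931 of the mitosis sum in early, 0.298 to 0.687 in differentiating and 0.332 to 0.671 in mature osteoblasts of libraries 1 to 7, with 2.30 in mature osteoblasts of library 8, where 66.2 CPM of mitosis RNA remained. In single cells thinned to 2000 UMIs, at least 2 S phase and at least 2 mitosis members were detected together in 7.51 ± 6.10% of early, 11.2 ± 4.10% of differentiating and 2.89 ± 1.25% of mature osteoblasts (SD, n = 8). At least 2 S phase members with fewer than 2 mitosis members were detected in 11 ± 5.67, 10.8 ± 2.71 and 4.2 ± 1.49%, and at least 2 mitosis members with fewer than 2 S phase members in 6.95 ± 4.48, 8.41 ± 3.24 and 3.99 ± 2.38%.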

How the data were processed

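Per the file headers and the labels, the authors counted UMIs per gene and barcode with Cell Ranger (5.0.0 for kit version 3, 6.0.1 for kit version 3.1) against mm10. The deposited UMI counts were used as they stood, with total depths of 30480239 to 85162035 UMIs per library. A barcode counted as a cell when 500 or more genes were seen and mitochondrial UMIs stayed below 10%, and likely doublets were kept (left out as an alternative). UMIs were summed per library and class where a class held at least 10 cells. Sums were tested with edgeR 4.0.16 (TMM, filterByExpr, quasi-likelihood, R 4.3.3), with kit version as covariate between genotypes and library as block between classes, and with DESeq2 1.42.0 as an alternative. Genes were called at a Benjamini-Hochberg adjusted p under 0.05 over all genes tested. Fold changes are on edgeR's log2 scale, and differences are Het minus WT or first class minus second. The fits were also run on simulated counts, and the outcome of those runs is not used here. Shares of cells used cells thinned to 2000 UMIs, with shallower cells left out, and exact 95% intervals.

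Gene positions are those of GENCODE on GRCm38, and promoters those of RefSeq on GRCm38.p6. The members and the other gene lists were chosen with earlier results of these data known. All 40 members may be named. Those described in each comparison were the called ones (the 6 with the smallest p where more were called, the 3 with the smallest p where none was) and, by their fits, Mki67, Top2a, Cdk1, Pcna, Mcm5 and Ccne1. Of the other lists Ccnd1, Cdkn1a and Cdkn1c were given in each comparison. The replicate numbers of the titles did not pair the libraries (correlation of deviations 0.072 and 0.162 in the 2 kits). Alternatives were another tool, no filter, other cell and osteoblast thresholds, no collagen genes, no kit term, a replicate block and each library left out. The fits within each kit and those without cells carrying blood markers were chosen after seeing the data.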

Additional observations from a re-analysis of the deposited data

Results flagged for a closer look

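Among 126 groups of 4 libraries tested for a library far from the other 3, 2 were found, and chance gives about 1 in 20. Top2a in differentiating osteoblasts of Het library 7 was at 182.2 CPM, against 312.5 to 318.8 CPM in the other 3 Het libraries. Mcm5 in Col2a1 cells of WT library 2 was at 29.95 CPM, against 12.39 to 13.63 CPM in the other 3 WT libraries.

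The genotype difference of osteoblasts differed between the kit versions, by the test of that difference, for Cenpa (-1.601 on the log2 scale, edgeR adjusted p = 0.0229), Aurka (-2.186, 0.026), Cenpf (-1.515, 0.0316) and Ccnb1 (-1.807, 0.0394), and outside the 40 genes for Cdkn1c (-1.406, 0.0183), Cdkn2b (1.85, 0.0251) and Cdca3 (-1.461, 0.0416).

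Barcodes under 500 detected genes, which entered no comparison, also held UMIs of the members. They made up 528.7 CPM of such barcodes in library 8 (392 UMIs), the lowest of the 8 libraries, and 1070 CPM in library 5 (4948 UMIs), the highest.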

How the results depend on the processing

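The fall of the members from differentiating to mature osteoblasts kept 36 to 40 called members without any 1 library, 38 to 40 under each other alternative with both kits, and 23 within kit version 3.1. Mature against early osteoblasts ranged from 16 to 30 called members without 1 library, and was 11 without likely doublets, 10 within kit version 3.1 and 7 with osteoblasts by 3 UMIs. Differentiating against early osteoblasts ranged from 0 to 4 without 1 library (4 without WT library 5, 1 without WT library 2 or Het library 3, 7 or 8), and was 1 with DESeq2, 10 higher with no filter (4.82% of all genes), 1 without doublets, 0 with mitochondrial UMIs under 5%, 1 in kit version 3, 0 in kit version 3.1, 0 without cells carrying blood markers and 0 with osteoblasts by 3 UMIs. Osteoblasts against Col2a1 cells ranged from 4 to 13 (13 without WT library 2), and was 2 in kit version 3 and 27 in kit version 3.1. Against the remaining cells it was 0 without any 1 library, 1 in kit version 3, 28 in kit version 3.1 and 11 without cells carrying blood markers. There Mki67 (-0.23) turned to 0.80 in kit version 3.1, and Cdk1 (-0.09) to 0.59 in kit version 3.1 and 0.39 without cells carrying blood markers. Against Ptprc cells it was 36 to 38 without 1 library. Genotype by kit ranged from 0 to 6 without 1 library (1 without WT library 5, 2 without WT library 6), and was 14 lower with no filter (2.98% of all genes) and 0 with mitochondrial UMIs under 5%. Genotype by stage was 0 without any 1 library and 2 lower with no filter (0.0409% of all genes). Counts printed here without a share are not set against all genes.

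Het against WT stayed at 0 called members with 1 library left out in 6 of the 7 classes, and was 0 to 1 in mature osteoblasts (1 without Het library 7). It was 10 in kit version 3 for all osteoblasts, 15 in kit version 3 and 2 higher with no filter (0.316% of all genes) for early osteoblasts, 1 in kit version 3 and 1 lower with no filter (1.28%) for mature osteoblasts, 2 with DESeq2 and 2 in kit version 3 for Col2a1 cells, 9 lower with no filter (3.18%) for Ptprc cells, and 13 with DESeq2 and 1 lower with no filter (0.904%) for the remaining cells. The kit version 3 counts of mature osteoblasts and Col2a1 cells are not set against all genes. With a replicate block 0 members were called in each class, and the block changed no call of a class. The cause of these changes was not tested.

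The share of cells with at least 3 members, Het minus WT, moved without thinning to 4.07 points (early), -3.45 (mature), 1.72 (all osteoblasts) and 11.6 (Ptprc cells). Mature minus early was -23.1 points when thinned to 5000 UMIs. Without 1 library the differences were 12.0 to 17.3 (early), 4.77 to 10.9 (differentiating), 0.261 to 2.5 (mature), 5.37 to 8.0 (all osteoblasts), -3.95 to 0.0475 (Col2a1 cells), 3.84 to 8.48 (Ptprc cells) and -21.5 to -4.04 (remaining cells) points, and -12.3 to -8.76 for mature minus early.

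A library held as few as 22 early, 33 differentiating and 42 mature osteoblasts, 3 members of the 40 were too low for the fit in early osteoblasts and 4 in mature ones between genotypes, and members such as Cdc6 rested on 1 to 8 UMIs per library in mature cells. Each genotype had 4 pools, 2 per kit, and the kit and the counting software changed together.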

Other observations

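Osteoblasts also differed from the comparison classes in the inhibitors of cyclin-dependent kinases, which did not move together. Of 8 inhibitors 3 were higher and 4 lower than in Col2a1 cells by edgeR's quasi-likelihood test, where 28.4% of all genes were higher and 28.8% lower. Cdkn2a and Cdkn2b, the inhibitors of the Cdk4 and Cdk6 kinases (log2 3.20 and 3.23), and Cdkn1a (0.90, edgeR adjusted p = 0.0333) were higher, while Cdkn1c, the p57 inhibitor (-1.42), Cdkn2c (-0.63), Cdkn1b (-0.48) and Cdkn2d (-0.46) were lower. Cdkn1c was at 163, 396 and 453 CPM (lowest, median, highest) in osteoblasts and at 602, 815 and 1460 CPM in Col2a1 cells, without overlap. Against Ptprc cells 3 were higher, Cdkn2b (4.51), Cdkn2a (2.45) and Cdkn1c (2.35), and 4 lower, Cdkn3 (-1.13), Cdkn2d (-1.09), Cdkn1b (-0.87) and Cdkn2c (-0.31), where 33.5% of all genes were higher and 35.3% lower, and Cdkn1a did not pass (0.70, edgeR adjusted p = 0.149). Against the remaining cells 2 were higher, Cdkn2a (2.20) and Cdkn2b (2.19), and 2 lower, Cdkn1c (-0.94) and Cdkn1b (-0.59), where 35.5% of all genes were called either way.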
